A study of Mus musculus with 7 samples.

Results

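Id1, Id2, Id3 and Hes1, genes for repressors of differentiation, were followed in sorted mouse long-term haematopoietic stem cells, the cells that renew the blood system. They were chosen by gene symbol, and all 4 were found among the 19649 genes of the deposited table of normalized counts and passed the filter on low values. A normalized count is a read count divided by a size factor of its library. Of the 7 libraries, 3 came from Calr fl/fl mice (Calr del52/del52) with MxCre, called mutant 1 to 3, and 4 from Calr +/+ mice with MxCre, called wild-type 1 to 4. Calr encodes calreticulin, a chaperone of the endoplasmic reticulum, and del52 is a deletion of the kind found in patients with myeloproliferative neoplasms. MxCre is a Cre recombinase under an interferon-responsive promoter, so its action is not limited to stem cells. Both genotypes carried it, and both were given pI:pC, a double-stranded RNA mimic that induces it. Cells were sorted 14 days after induction began, by surface markers: CD150, Sca-1 and Kit present, CD48 and lineage markers absent. They received no other treatment. The strain is labelled as a CALR knockin crossed to MxCre mice. The sources used here state neither ages nor whether libraries are separate animals. The p-values therefore measure the spread between libraries, which may be technical.

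ID proteins are helix-loop-helix proteins without a DNA-binding region. They pair with E proteins such as E2A, HEB and E2-2 and keep them off DNA, which holds back lineage genes that E proteins switch on. HES1 is a helix-loop-helix repressor that does bind DNA, recruits Groucho (TLE) corepressors and is a well-known target of Notch signalling. Id genes are known targets of BMP and SMAD signalling, and in blood formation both families are studied for their part in keeping stem cells undifferentiated and in the choice between lymphoid and myeloid fates.

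The helix-loop-helix region is where the 3 ID proteins are most alike, so its coding sequence shows what the members share and whether reads could be confused between them. The 120-base stretch of highest shared identity is given from the GENCODE vM21 transcripts of GRCm38, with capitals for the 77 bases that are the same in all 3 genes. It lies at chr2:152736518-152736637 (plus strand) for Id1, chr12:25095783-25095902 (minus strand) for Id2 and chr4:136144002-136144121 (plus strand) for Id3.
Id1-201: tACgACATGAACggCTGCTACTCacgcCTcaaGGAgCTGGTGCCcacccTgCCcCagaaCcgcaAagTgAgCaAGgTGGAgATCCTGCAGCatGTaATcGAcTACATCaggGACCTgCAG
Id2-201: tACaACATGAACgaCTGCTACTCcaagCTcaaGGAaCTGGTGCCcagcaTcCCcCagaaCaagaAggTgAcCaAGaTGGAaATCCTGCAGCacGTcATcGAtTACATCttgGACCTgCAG
Id3-201: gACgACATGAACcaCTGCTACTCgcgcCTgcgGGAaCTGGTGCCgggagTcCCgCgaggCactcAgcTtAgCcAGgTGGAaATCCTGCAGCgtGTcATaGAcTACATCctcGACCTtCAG
Id1 and Id2 were identical at 81.7% of these bases, Id1 and Id3 at 70.8%, and Id2 and Id3 at 71.7%. Even so, the longest run shared by the whole transcripts was 11 bases for Id1 and Id2, 12 for Id1 and Id3, and 19 for Id2 and Id3.

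The libraries held between 21325340 and 28710304 reads in genes. Calr itself had 14239 to 15724 normalized counts in the mutants, against 15922 to 18606 in the wild-type libraries (log2 -0.15, SE 0.15). A gene total cannot show the deletion, so it does not check the genotype labels. The wild-type libraries formed distinct pairs: 8810 genes, or 54.9% of 16047 tested, differed between wild-type 3 and 4 and wild-type 1 and 2. Library titles put mutant 1 and 2 in a number series with wild-type 3 and 4, and mutant 3 and wild-type 1 and 2 outside it, without saying what the series marks. Stem cell markers were present in every library, with Slamf1, the gene for CD150, at 1915 to 2407 normalized counts in the mutants, against 1416 to 1931 in the wild-type libraries. Kit was at 2976 to 6677 in the mutants, against 4068 to 4150.5 in wild-type 1 and 2 and 25305 to 26511 in wild-type 3 and 4. The mitochondrial share of reads was 0.683% to 1.17% in the mutants, against 0.363% to 0.711% in the wild-type libraries. Every comparison was therefore made against each wild-type pair as well as against all 4 libraries. In bulk samples such as these, fewer cells of a type and less RNA per cell cannot be told apart.

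The values of Id1, Id3 and Hes1 depended on which wild-type libraries the mutants were set against. They were higher in all 3 mutants than in wild-type 1 and 2, by 8.04-fold, 8.38-fold and 13.5-fold in the fit, with Id1 and Hes1 past the threshold. Relative to wild-type 3 and 4 their log2 differences were negative and did not pass. Id2 varied far less and was higher in every mutant than in every wild-type library, by 1.45-fold on average, without passing the threshold. None of the 4 genes passed when all 4 wild-type libraries were used.

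**Figure D1:**
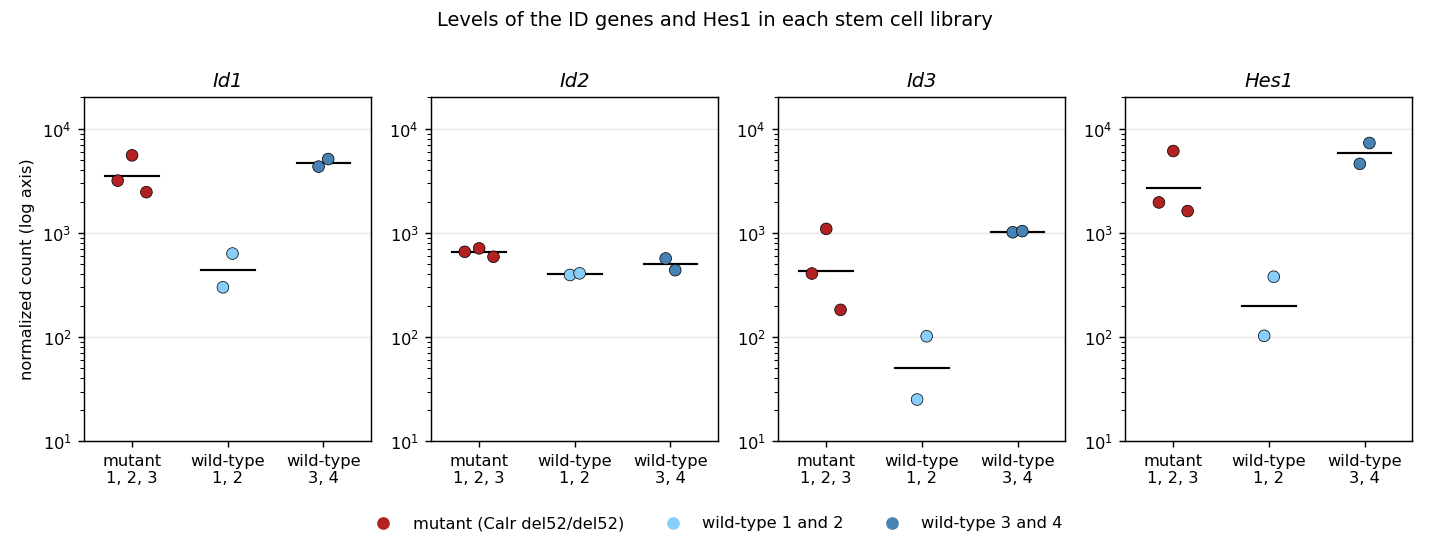
Normalized count (log axis) of Id1, Id2, Id3 and Hes1, with 1 point per library and a line at the geometric mean of each group. The mutants lie above wild-type 1 and 2 in all 4 panels, and the gap between the wild-type pairs is widest for Hes1 and narrowest for Id2.

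Id1, the best-known BMP target among the ID genes, had 3176, 5558 and 2463 normalized counts in mutant 1, 2 and 3, against 300.4, 634, 4330.2 and 5115 in wild-type 1 to 4. Every mutant was above wild-type 1 and 2, while wild-type 3 and 4 lay between mutant 1 and mutant 2. Means were 3732 ± 1621 in the mutants and 2595 ± 2481 in the wild-type libraries (SD, n = 3 and 4), so the spread among wild-type libraries was close to their mean. Set against wild-type 1 and 2, Id1 rose by 3.01 on the log2 scale (SE 0.37, limma, Benjamini-Hochberg adjusted p = 0.0199), a fold change of 8.04. That call ended without wild-type 1 (log2 2.47, adjusted p = 0.327) and with FPKM in place of counts (log2 2.91, adjusted p = 0.0504). The difference from wild-type 3 and 4 was -0.42 (SE 0.30, adjusted p = 0.289), and from all 4 libraries 1.29 (SE 0.97, adjusted p = 0.553).

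Id3, which acts with the other ID genes in lymphoid and endothelial cells, had 407, 1093 and 182 normalized counts in mutant 1, 2 and 3, against 25.1, 102, 1015 and 1040.3 in wild-type 1 to 4. Wild-type 1 was the lowest library, with 23 reads, and mutant 2 the highest, with 1224. The mutants spread 5.99-fold among themselves and the wild-type libraries 41.4-fold. Against wild-type 1 and 2 the log2 difference was 3.07 (SE 0.71, adjusted p = 0.154), which did not pass although no mutant overlapped that pair. It passed without mutant 2 (log2 2.40, adjusted p = 0.00204) and without mutant 3 (log2 3.69, adjusted p = 0.0042). Relative to wild-type 3 and 4 it was -1.24 (SE 0.60, adjusted p = 0.124), and against all 4 libraries 0.91 (SE 1.30, adjusted p = 0.72). Group means were 561 ± 474 in the mutants and 546 ± 558 in the wild-type libraries (SD, n = 3 and 4), so the positive log2 value came with nearly equal means.

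Hes1 varied most of the 4 genes, with 1961, 6111 and 1620.4 normalized counts in mutant 1, 2 and 3, against 103, 379, 4603 and 7295 in wild-type 1 to 4. Mutant 2 lay between wild-type 3 and wild-type 4, and mutant 1 and 3 lay between the wild-type pairs. Across the wild-type libraries the highest exceeded the lowest 71.0-fold, against 3.77-fold across the mutants. Against wild-type 1 and 2, Hes1 rose by 3.76 on the log2 scale (SE 0.60, adjusted p = 0.0411), a fold change of 13.5. The call ended without wild-type 1 (log2 2.82, adjusted p = 0.579), without wild-type 2 (4.70, 0.0679), without mutant 1 (3.99, 0.06), with edgeR (3.73, 0.132), with FPKM (3.48, 0.0903) and with quantile scaling (3.68, 0.0673). Its difference from wild-type 3 and 4 was -1.11 (SE 0.50, adjusted p = 0.106), and against all 4 libraries 1.33 (SE 1.40, adjusted p = 0.639). Means were 3231 ± 2500.4 in the mutants and 3095 ± 3476 in the wild-type libraries (SD, n = 3 and 4), and edgeR, which compares means, gave a log2 difference of 0.047.

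Id2, the ID gene known for its part in innate lymphoid, natural killer and dendritic cell development, spread least of the 4 genes. It had 659, 711 and 589.7 normalized counts in mutant 1, 2 and 3, against 394, 409, 568 and 439 in wild-type 1 to 4. The lowest mutant was above the highest wild-type library, though only by the gap between mutant 3 and wild-type 3. Means were 653 ± 60.8 in the mutants and 453 ± 79.1 in the wild-type libraries (SD, n = 3 and 4). Against all 4 libraries the log2 difference was 0.54 (SE 0.20), with an unadjusted p of 0.0258 and an adjusted p of 0.538 in limma. A two-sided exact permutation test gave p = 0.0571, where 0.0286 is the smallest value 3 against 4 libraries can give. Against wild-type 1 and 2 the difference was 0.70 (SE 0.18, adjusted p = 0.213), which passed without mutant 2 (log2 0.63, adjusted p = 0.04865) and in DESeq2 (log2 0.70, adjusted p = 0.0479). Against wild-type 3 and 4 it was 0.38 (SE 0.19, adjusted p = 0.136). It was 0.45 between mutant 1 and 2 and wild-type 3 and 4, the libraries of the shared number series, and 0.55 between mutant 3 and wild-type 1 and 2. With the number series as a term in the fit, which sets all libraries outside it together, it was 0.49 (SE 0.16, adjusted p = 0.0512).

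Markers of other cell types were measured in 2 ways, as a sum of normalized counts, which abundant genes dominate, and as the mean log2 deviation of the tested genes from their mean over 7 libraries, which weights them equally. Neutrophil and monocyte markers, all 12 in the table, deviated by 0.33, -1.79 and -1.73 in mutant 1, 2 and 3, against 0.45, 0.35, 1.49 and 0.89 in wild-type 1 to 4. Every mutant was thus below every wild-type library, mutant 1 only narrowly. Their sum was 49960, 10953 and 13138 in mutant 1, 2 and 3, against 45150 to 88927 in the wild-type libraries, which overlapped in mutant 1. B cell markers, 6 of 10 in the table and without Ms4a1, Pax5, Cd22 and Blk, deviated over 5 tested genes by -0.29, -0.49 and -0.31 in mutant 1, 2 and 3, against -0.077, 0.63, 0.28 and 0.26 in wild-type 1 to 4, again with every mutant below every wild-type library. Of these 5 genes, 3 had log2 differences below 0 against all 4 wild-type libraries and 2 above. Cd79a and Igll1 were among those below 0 and had few counts in every library, so the mean deviation rests partly on genes near the floor. Vpreb1 was above 0. The sum of the B cell markers overlapped, at 1374 to 1932 in the mutants, against 963 to 1690.3 in the wild-type libraries. Most of it was Cd79b, a B cell receptor gene named after its values were seen. Ebf1, a defining B cell factor, was at 0 in some libraries. The mean deviations of these lists therefore divided the genotypes, as Id2 did in the other direction, but the lists were unlike. Against all 4 wild-type libraries, 10 of the 12 neutrophil and monocyte genes were below 0 and 2 above (median log2 -2.16). Of these 12, 10 were lower at an unadjusted p under 0.05 in limma, where 8.51% of all genes were under it in either direction. None passed after adjustment. The B cell genes were mixed (median -1.25).

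Megakaryocyte markers, 9 of 10 in the table and without Gp6, divided the genotypes by their sum alone, at 21199 to 25665 in the mutants, against 26653 to 38691 in the wild-type libraries. Their mean deviation overlapped, at -0.41, -0.39 and 0.22 in mutant 1, 2 and 3, against 0.47, 0.71, 0.051 and -0.66 in wild-type 1 to 4. Of 10 T, natural killer and innate lymphoid markers only 4 were in the table, and their sum was 1672 to 2343 in the mutants, against 1217 to 2894 in the wild-type libraries. Cd3e, Cd3g, Cd2, Ncr1, Gzma and Tbx21 were not in the table. Dendritic cell markers, 7 of 10 in the table, summed to 949 to 1502 in the mutants, against 1136 to 1695 in the wild-type libraries. Erythroid markers, all 10 in the table, summed to 56711 to 71120 in the mutants, against 35484 to 57223 in the wild-type libraries. Endothelial markers, 8 of 10 in the table and without Cdh5 and Sox17, summed to 10320 to 11127 in the mutants, against 8419 to 14416 in the wild-type libraries. For the T and natural killer, dendritic, erythroid and endothelial lists the genotypes overlapped in both measures. The part of these cell types in the values of the 4 genes was not tested.

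Counted together, 2 of the 4 genes passed higher against wild-type 1 and 2, where 38 of 16047 genes did (0.237%; 0.318% in either direction). All 4 genes had every mutant above that pair, which held for 13.9% of all genes. The number of calls in either direction, 51, was 0 without wild-type 1, 9 without wild-type 2, 24 without mutant 1, 769 without mutant 2 and 197 without mutant 3. Against wild-type 3 and 4 none of the 4 genes passed, where 42.6% of all genes did, and Id2 alone had every mutant above, as had 33.8% of all genes. Those calls numbered 6828, but 1483 without wild-type 3, 1934 without wild-type 4 and 4254 without mutant 1. Against all 4 wild-type libraries none passed, as for every gene tested in limma (0.0%), and Id2 alone had every mutant above, as had 5.23% of all genes. At an unadjusted p under 0.05 there were 1365 such genes (8.51%) in limma, and edgeR also called 0, with 1639 at an unadjusted p under 0.05, while DESeq2 called 107, none of them these 4.

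**Figure D2:**
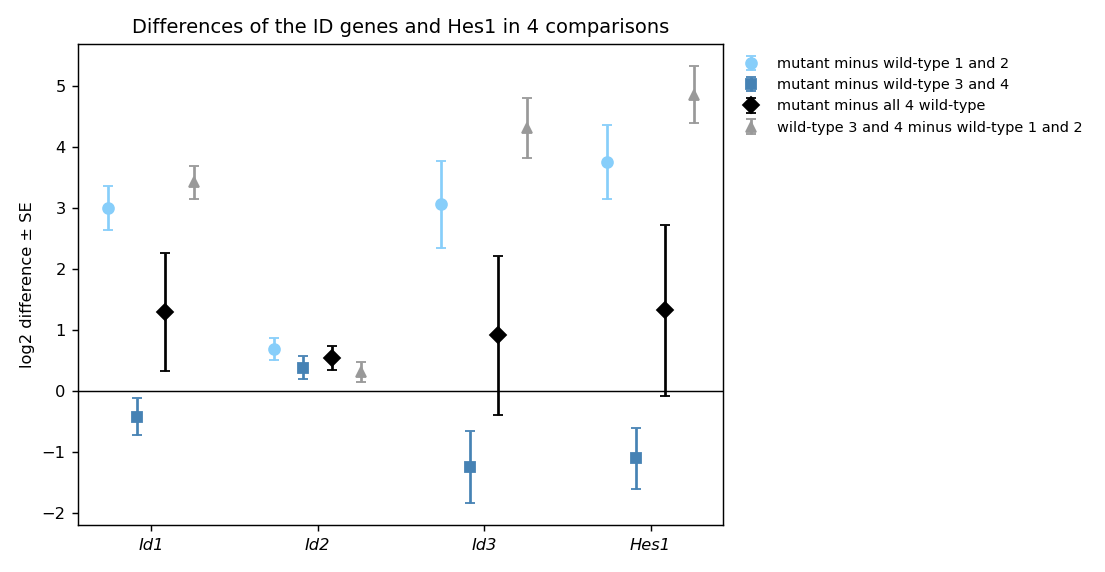
Log2 difference with its standard error for each gene in 4 comparisons, on the log2(normalized count + 1) scale. For Id1, Id3 and Hes1 the points against wild-type 1 and 2 are at 3.01, 3.07 and 3.76 and those against wild-type 3 and 4 at -0.42, -1.24 and -1.11, while Id2 is positive in all comparisons.

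The wild-type pairs themselves differed in Id1, Id3 and Hes1 by more than the mutants differed from either pair. Wild-type 3 and 4 exceeded wild-type 1 and 2 by 3.43 for Id1 (SE 0.27, adjusted p = 7.41e-06), by 4.31 for Id3 (SE 0.49, adjusted p = 5.64e-05) and by 4.87 for Hes1 (SE 0.47, adjusted p = 2.03e-05), all on the log2 scale. For Id2 the difference was 0.31 (SE 0.17, adjusted p = 0.145). Passing was common here, since 54.9% of all genes did, but a log2 difference of 3 or more, a bound chosen after the values were seen, was reached by 0.673% of genes and by 3 of these 4. With 2 libraries a side, an exact permutation test cannot go below 0.333. Both mutant comparisons share the mutant libraries, so the difference between them equals this wild-type difference and adds nothing to it.

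Among the mutants, mutant 2 was the highest library for each of the 4 genes and mutant 3 the lowest. Without mutant 2, Id1 (log2 -0.75, adjusted p = 0.00184), Id3 (-1.91, 0.000304) and Hes1 (-1.70, 4.48e-05) passed as lower than wild-type 3 and 4. Passing was common in that setting, where 4682 of 16047 genes tested were called lower and 4078 higher. Between mutant 1 and 2 and wild-type 3 and 4, the libraries of the shared number series, the differences were -0.16 for Id1, -0.62 for Id3 and -0.74 for Hes1. Between mutant 3 and wild-type 1 and 2, outside the series, they were 2.49, 1.82 and 3.03, with mutant 3 as a lone library assumed to vary like the others. Mutant 3 and wild-type 1 and 2 share no number series, so they are not matched by title. The 2 settings thus gave opposite signs for each of these genes.

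Libraries also differed in how signal depended on gene length. The slope of log2 count on log2 length, relative to the mean library, was -0.12, 0.0098 and -0.18 in mutant 1, 2 and 3, against -0.097, -0.11, 0.24 and 0.24 in wild-type 1 to 4. Wild-type 3 and 4 had the highest slopes. With that slope as a term in the fit against all 4 libraries, Id1 was 2.84 higher in the mutants (SE 0.28, adjusted p = 0.004), Id3 2.97 (SE 0.44, adjusted p = 0.0193) and Hes1 3.55 (SE 0.44, adjusted p = 0.00946). Id2 was 0.70 (SE 0.14, adjusted p = 0.0586) and did not pass. Of 16047 genes tested with that term, 99 passed as higher and 28 as lower. That term separates the wild-type pairs in the same way as the pairs themselves do, so slope and pair cannot be told apart.

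On the scale per length, FPKM, Id1 was the most abundant of the 4 and Hes1 the next, by mean. Summed over transcripts, Id1 had 117, 213 and 92.0 FPKM in mutant 1, 2 and 3, against 12.1, 22.9, 169 and 206 in wild-type 1 to 4. Hes1 had 47.6, 152 and 39.9 FPKM in mutant 1, 2 and 3, against 2.42, 9.57, 117 and 189 in wild-type 1 to 4. These ranges overlapped in both genotypes. Id2 was at 18.5 to 21.7 FPKM in the mutants, against 11.6 to 17.9 in the wild-type libraries, and Id3 at 4.96 to 32.6 in the mutants, against 0.798 to 31.2 in the wild-type libraries. The order of Id2 and Id3 thus changed between libraries, with Id3 above Id2 in mutant 2 and in wild-type 3 and 4.

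The order of the libraries was nearly the same for Id1, Id3 and Hes1. From low to high it began with wild-type 1, wild-type 2, mutant 3 and mutant 1 for all 3 genes, and it ended with wild-type 3, wild-type 4 and mutant 2 for Id1 and Id3, and with wild-type 3, mutant 2 and wild-type 4 for Hes1. Of all genes tested, 216 (1.35%) began in that order, which was taken from these 3 genes after their values were seen. For Id2 the order began with the 4 wild-type libraries.

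Immediate early genes, which are transcribed within minutes of a stimulus, showed the same pattern and are given here for that reason. Their list, of 23 genes in the table, deviated from its mean over 7 libraries by 0.014, 1.10 and -0.42 in mutant 1, 2 and 3, against -2.77, -1.36, 1.59 and 1.85 in wild-type 1 to 4 (log2). Hes1 deviated by 0.30, 1.94 and 0.028 in mutant 1, 2 and 3, against -3.94, -2.06, 1.53 and 2.2 in wild-type 1 to 4. Wild-type 1 and 2 were the lowest and wild-type 3 and 4 the highest for the list, as they were for Hes1 apart from mutant 2. Summed over the list, counts were 281503 to 616813 in the mutants, against 59106 to 825576 in the wild-type libraries. The library order that Id1, Id3 and Hes1 began with was shared by 14 of the 23 genes, against 1.35% of all genes tested. As the list is given for its likeness to these genes, that match is partly built in. In the other lists the order was shared by 3 of 30 BMP and TGF-beta SMAD genes and 2 of 35 Notch pathway genes. It was shared by 1 of 9 HES and Groucho genes, 1 of 12 E protein targets, 0 of 15 E protein partners and 0 of 5 kinase inhibitors.

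**Figure D3:**
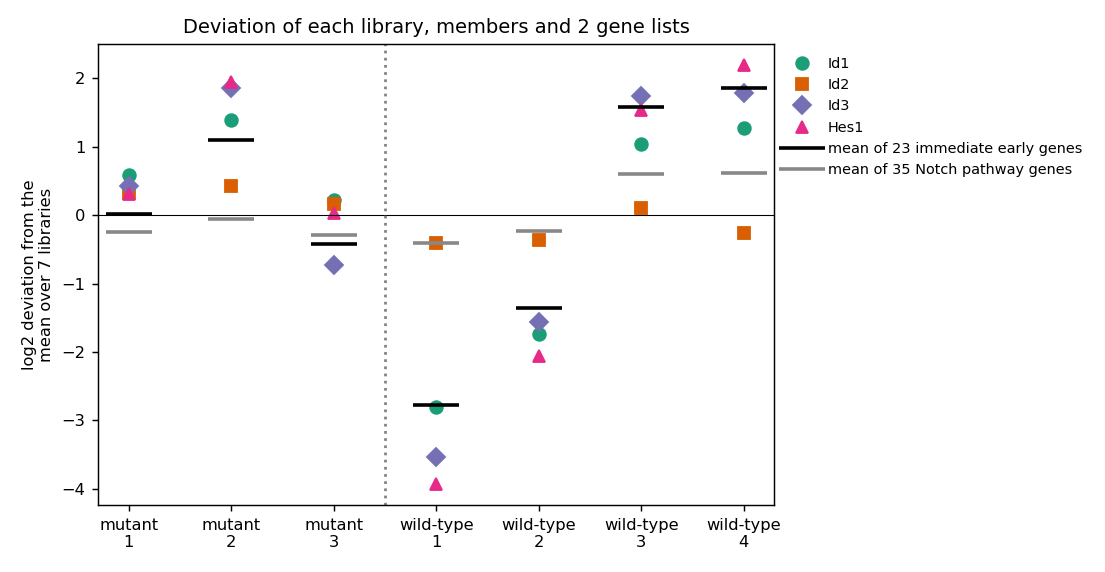
Deviation of each library from the mean over 7 libraries (log2), for the 4 genes as points and for the means of 2 gene lists as bars. Id1, Id3 and Hes1 lie close to the immediate early list, from below -1.5 in wild-type 1 and 2 to above 1 in wild-type 3 and 4, while Id2 stays within 0.5 of its mean.

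Against wild-type 1 and 2, 4 of the 23 immediate early genes rose and none fell, where 0.237% of all genes rose (median log2 2.14, against 0.000062 over all genes). Set against wild-type 3 and 4, 14 fell and none rose (median -1.33), where 22.8% of all genes fell and 19.7% rose. In wild-type 3 and 4, 22 were higher than in wild-type 1 and 2 (median 3.58), where 29.6% of all genes were higher and 25.3% lower, and against all 4 wild-type libraries none passed (median 0.37). Klf4, a zinc-finger factor named after its values were seen, had 664, 1710.0 and 750.4 normalized counts in mutant 1, 2 and 3, against 14.2, 56.1, 2684 and 3799 in wild-type 1 to 4. It rose against wild-type 1 and 2 (log2 5.01, adjusted p = 0.0158) and fell against wild-type 3 and 4 (log2 -1.75, adjusted p = 0.00804). The smallest p in the list against all 4 libraries belonged to Fosl2, Ier3 and Fosl1. Fosl2, a FOS-family factor, had 222, 173 and 222 in mutant 1, 2 and 3, against 327, 294, 313 and 550.5 in wild-type 1 to 4, with every mutant below every wild-type library, as for 4.34% of all genes (log2 -0.81, SE 0.27, adjusted p = 0.538). Ier3, a survival gene, was at 3902 to 5495 in the mutants, against 1897 to 4869.6 in the wild-type libraries, and Fosl1, another FOS-family factor, at 15.7 to 80.4 in the mutants, against 34.3 to 128 in the wild-type libraries. Both overlapped between genotypes. The part of this immediate early signal in the values of Id1, Id3 and Hes1 was not tested.

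The genes whose pattern over the 7 libraries was most like each member were taken by Pearson's r of log2 levels among 11219 genes with a mean of at least 100 normalized counts. For Id1 they were Hes1 (0.989), Fos (0.988) and Rgs1 (0.986), and for Id3 Junb (0.996), Btg2 (0.995) and Gas2l3 (0.992). For Hes1 they were Btg2 (0.995), Fos (0.994) and Dusp1 (0.994). These values describe 7 libraries that share their sorting and wild-type pairs, and carry no test. Id2 was most like Pdcl (0.991), Fggy (0.990) and Clec1a (0.960), none of which was in the immediate early list. Clec1a, a C-type lectin gene, had 859, 955 and 871 normalized counts in mutant 1, 2 and 3, against 627, 552, 775 and 647 in wild-type 1 to 4, with every mutant above every wild-type library, as its choice by likeness to Id2 implies.

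Id1 has 2 annotated transcripts, and they did not follow each other from library to library. Their log2 differences had the same sign in each comparison except that with wild-type 3 and 4. In Id1-201 the intron of 226 bases is spliced out, and in Id1-202 it is kept, which gives a coding sequence of 507 bases in place of 447 and another end to the protein. The coding ends are shown to mark where the transcripts part: the 30 bases before the splice site are in lower case and the bases that differ, up to the stop codon, in capitals (GENCODE vM21, GRCm38, plus strand). They span chr2:152736716-152737013 across the intron for Id1-201 and chr2:152736716-152736847 for Id1-202.
Id1-201: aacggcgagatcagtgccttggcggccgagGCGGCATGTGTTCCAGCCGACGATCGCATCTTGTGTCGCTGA
Id1-202: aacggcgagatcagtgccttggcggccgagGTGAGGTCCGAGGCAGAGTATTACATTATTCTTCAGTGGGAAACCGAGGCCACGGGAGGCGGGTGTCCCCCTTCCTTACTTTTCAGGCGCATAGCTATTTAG
Reads of unspliced Id1 RNA also cover the intron, so they cannot be told apart from Id1-202.

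Id1-201 had 67.3, 179 and 51.8 FPKM in mutant 1, 2 and 3, against 11.6, 9.76, 138 and 188 in wild-type 1 to 4. Id1-202 had 50.2, 34.6 and 40.3 FPKM in mutant 1, 2 and 3, against 0.513, 13.2, 31.5 and 18.6 in wild-type 1 to 4. Every mutant was above every wild-type library for Id1-202, which held for 4.27% of 30156 transcripts tested. The spliced transcript followed the whole gene, with wild-type 3 and 4 at or above most mutants. The retained form made up 42.7%, 16.2% and 43.7% of Id1 FPKM in mutant 1, 2 and 3, against 4.23%, 57.5%, 18.6% and 9.03% in wild-type 1 to 4. Those shares overlapped, with wild-type 2 the highest. Id1-202 differed by 1.96 on the log2(FPKM + 1) scale against all 4 wild-type libraries (SE 0.91, adjusted p = 0.661 in limma, exact permutation p = 0.0857), which did not pass. Set against wild-type 3 and 4 alone it was 0.74 (SE 0.27, adjusted p = 0.0869), opposite in sign to Id1-201 at -0.90 (SE 0.50, adjusted p = 0.218).

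**Figure D4:**
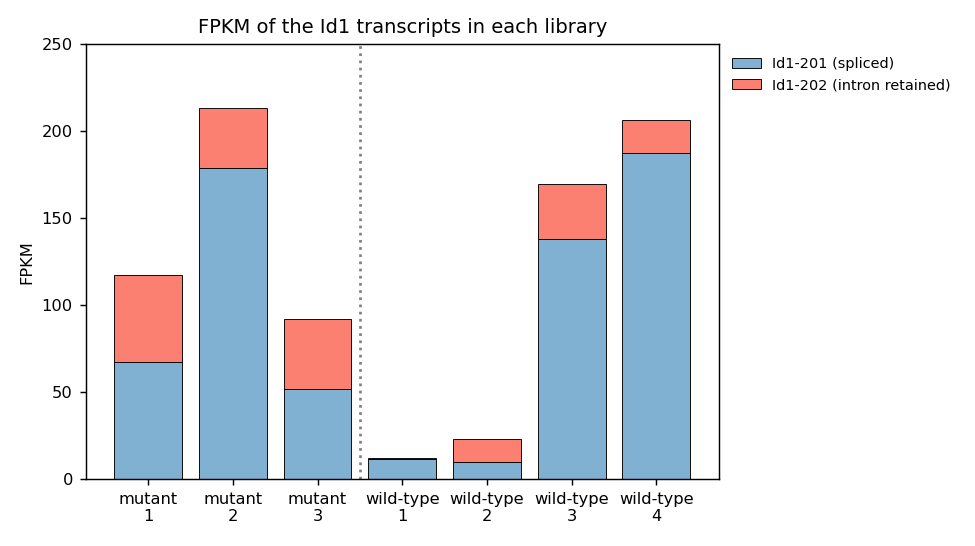
FPKM of the 2 Id1 transcripts in each library, stacked, with mutants left of the dotted line. The spliced Id1-201 is lowest in wild-type 1 and 2, and the intron-retaining Id1-202 is between 34.6 and 50.2 FPKM in the mutants, against 0.513 to 31.5 FPKM in the wild-type libraries.

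For the other members 1 transcript carried most of the signal, Id2-201 with at least 73.0%, Id3-201 with at least 70.6% and Hes1-201 with at least 87.2% of FPKM in each library. Id2-201 had 14.9, 17.2 and 15.6 FPKM in mutant 1, 2 and 3, against 11.2, 10.1, 13.1 and 11.6 in wild-type 1 to 4. As for the whole gene, every mutant was above every wild-type library, which held for 4.27% of transcripts tested. The log2 difference was 0.44 (SE 0.17, adjusted p = 0.661 in limma). The exact permutation p of 0.0286 was the smallest possible. Id3-201 and Hes1-201 followed their genes and overlapped between genotypes, with log2 differences of 0.52 (SE 1.08) and 1.17 (SE 1.32).

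Partners of the ID proteins differed mainly from wild-type 3 and 4 and between the wild-type pairs, as did genes in general. Of 24 E protein and helix-loop-helix partner genes listed, 17 were in the table and 15 were tested. Against all 4 wild-type libraries none passed, as for all genes (median log2 -0.021, against 0.0004 over all genes). Against wild-type 1 and 2 only Bhlhe40, a helix-loop-helix repressor of the circadian clock named after its values were seen, rose (log2 2.28, SE 0.29, adjusted p = 0.0199), where 0.237% of all genes did. Bhlhe40 had 1032, 2232 and 1362 normalized counts in mutant 1, 2 and 3, against 317, 285, 1812 and 3646 in wild-type 1 to 4, which again separated the wild-type pairs. Tcf15, named after its values were seen, and Lmo4 rose against wild-type 3 and 4 and Tcf3, Tcf12 and Gata2 fell, where 19.7% of all genes rose and 22.8% fell. Between the wild-type pairs 6 were higher and 3 lower in wild-type 3 and 4, where 29.6% of all genes were higher and 25.3% lower. Tcf3, which encodes E2A, had 3575, 5497 and 2977 in mutant 1, 2 and 3, against 4467, 4022, 7523 and 6715 in wild-type 1 to 4 (log2 -0.87 against wild-type 3 and 4, SE 0.24, adjusted p = 0.0213). Tcf12, which encodes HEB, differed by -0.75 from that pair (SE 0.16, adjusted p = 0.00829). Mutant and wild-type 1 and 2 levels of both genes overlapped.

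Tcf4, the E2-2 gene, was steadier. It had 3977, 3737 and 3725 normalized counts in mutant 1, 2 and 3, against 3310.3, 3448, 3319 and 3352 in wild-type 1 to 4. Every mutant was above every wild-type library by a small margin, as for 5.23% of all genes. The log2 difference of 0.18 (SE 0.14, adjusted p = 0.553) did not pass. Lmo4, which encodes a LIM-only cofactor, was at 688 to 841 in the mutants, against 392 to 685 in the wild-type libraries (log2 0.55, SE 0.25, adjusted p = 0.538). Tal1 and Lyl1, stem cell helix-loop-helix factors that pair with E proteins, differed by -0.02 (SE 0.19) and 0.23 (SE 0.23), and their genotypes overlapped. Gata2, a stem cell factor of the same complexes, was at 6965 to 9592 in the mutants, against 7893 to 17999 in the wild-type libraries. Twist1 and Id4 were low, with Twist1 at 5.36 to 8.46 normalized counts in the mutants, against 10.8 to 14.5 in the wild-type libraries. Id4, the remaining ID gene, had 23.6, 17.9 and 20.5 in mutant 1, 2 and 3, against 4.37, 9.35, 29.2 and 54.1 in wild-type 1 to 4, so it too was lower in wild-type 1 and 2 than in every other library.

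Relatives and corepressors of HES1 numbered 9 tested genes of 15 listed. None passed against all 4 wild-type libraries (median log2 -0.17; 0.0% of all genes) or against wild-type 1 and 2 (median 0.15; 0.318% of all genes). Against wild-type 3 and 4, Hes6, an antagonist of HES1, rose and Tle2, Tle3 and Tle4, Groucho corepressors, fell, where 19.7% of all genes rose and 22.8% fell. Hes6 had 2791, 2527 and 2524 normalized counts in mutant 1, 2 and 3, against 2358, 2359, 1704 and 1740.4 in wild-type 1 to 4 (log2 0.60 against wild-type 3 and 4, SE 0.14, adjusted p = 0.011). Every mutant was above every wild-type library for Hes6, as for 5.23% of all genes. The difference from all 4 was 0.37 (SE 0.19, adjusted p = 0.538). Hes6 was named for a p among the smallest of its list in that comparison, a choice that favours such separation. Tle4 had 1019.8, 1243 and 907 in mutant 1, 2 and 3, against 851, 926, 1995 and 1918 in wild-type 1 to 4 (log2 -0.90 against wild-type 3 and 4, SE 0.17, adjusted p = 0.00609). Tle3 and Tle2 differed from that pair by -1.53 (SE 0.25) and -0.90 (SE 0.19). Hey1, a second Notch target of the HES family named after its values were seen, had 75.2, 301 and 8.46 in mutant 1, 2 and 3, against 0, 7.27, 378 and 703 in wild-type 1 to 4. Like Hes1 it was lowest in wild-type 1 and 2, but mutant 3 barely exceeded wild-type 2, with 7 reads in each.

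Notch pathway genes, which act upstream of Hes1, numbered 35 tested of 37 listed. None passed against wild-type 1 and 2 (median log2 0.10), where 0.318% of all genes did, or against all 4 libraries (median -0.37), where 0.0% did, so both counts are near the background. When set against wild-type 3 and 4, 20 fell and 4 rose (median -0.92), where 22.8% of all genes fell and 19.7% rose. Between the wild-type pairs 24 were higher and 4 lower in wild-type 3 and 4, where 29.6% of all genes were higher and 25.3% lower. Notch1, a receptor, had 202, 219 and 143 normalized counts in mutant 1, 2 and 3, against 149, 173, 1044 and 679 in wild-type 1 to 4. Notch2, the other main receptor, had 727, 752 and 477 in mutant 1, 2 and 3, against 538, 714, 4014 and 3576 in wild-type 1 to 4. For both receptors the mutants overlapped wild-type 1 and 2 and lay below wild-type 3 and 4 (log2 -2.18, SE 0.27, and -2.57, SE 0.22). Rbpj, the DNA-binding partner of Notch, differed by 0.08 from wild-type 1 and 2 (SE 0.23) and by -1.08 from wild-type 3 and 4 (SE 0.22, adjusted p = 0.00679).

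Within the Notch list, Notch4, a receptor best known from endothelium, had 172, 101 and 158 normalized counts in mutant 1, 2 and 3, against 75.4, 69.6, 63.4 and 75.7 in wild-type 1 to 4. Every mutant was above every wild-type library, as for 5.23% of all genes, and the wild-type pairs differed by -0.06 (SE 0.31). The log2 difference of the mutants from all 4 libraries was 0.97 (SE 0.27, adjusted p = 0.538). Fbxw7, the ubiquitin ligase subunit that marks Notch for degradation, had 297, 299 and 285 in mutant 1, 2 and 3, against 412, 369.8, 656 and 637 in wild-type 1 to 4 (log2 -0.77, SE 0.26, adjusted p = 0.538). There every mutant was below every wild-type library, as for 4.34% of all genes. Notch4 and Fbxw7 were named for a p among the smallest of the list against all 4 libraries, a choice that favours such separation. Jag1, a ligand, was at 10.7 to 21.3 in the mutants, against 19.7 to 54.9 in the wild-type libraries (log2 -1.13, SE 0.46, adjusted p = 0.538).

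BMP and TGF-beta SMAD genes, which act upstream of Id1 to Id3, numbered 30 tested of 36 listed. None passed against all 4 libraries (median log2 -0.34), where 0.0% of all genes did, or against wild-type 1 and 2 (median 0.20), where 0.318% did, and these counts too are near the background. Compared with wild-type 3 and 4, 15 fell and none rose (median -0.90), where 22.8% of all genes fell and 19.7% rose. In wild-type 3 and 4, 20 were higher than in wild-type 1 and 2 and none lower, where 29.6% of all genes were higher and 25.3% lower. Smad1, a BMP signal transducer, had 2286, 2707 and 1985 normalized counts in mutant 1, 2 and 3, against 2111, 1916, 2518 and 2715 in wild-type 1 to 4, and the genotypes overlapped (log2 0.0092, SE 0.19). Smad5, its partner, differed by 0.20 from wild-type 1 and 2 (SE 0.19) and by -1.16 from wild-type 3 and 4 (SE 0.18, adjusted p = 0.00233). The receptor genes Bmpr1a and Bmpr2 overlapped between genotypes, with log2 differences of -0.42 (SE 0.73) and -0.02 (SE 0.31) against all 4 libraries.

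Tgfbr3, the TGF-beta coreceptor betaglycan, had the smallest p of the list. It had 675, 772 and 535 normalized counts in mutant 1, 2 and 3, against 1280.4, 1369, 2779 and 2437 in wild-type 1 to 4. Every mutant was below every wild-type library (log2 -1.50, SE 0.31, adjusted p = 0.538), as for 4.34% of all genes. Naming the gene by its small p in that comparison favours such separation. Against wild-type 3 and 4 the gene fell (log2 -1.99, SE 0.19, adjusted p = 0.000424). Tgfb1, the ligand, was at 1504 to 2208 in the mutants, against 2233 to 5338 in the wild-type libraries (log2 -0.87, SE 0.34, adjusted p = 0.538). Bmp4, a BMP ligand, had 156, 56.3 and 180.0 in mutant 1, 2 and 3, against 22.9, 36.4, 28.4 and 59.0 in wild-type 1 to 4 (log2 1.73, SE 0.49, adjusted p = 0.538). Mutant 2 lay within the wild-type range and the other 2 mutants above it.

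**Figure D5:**
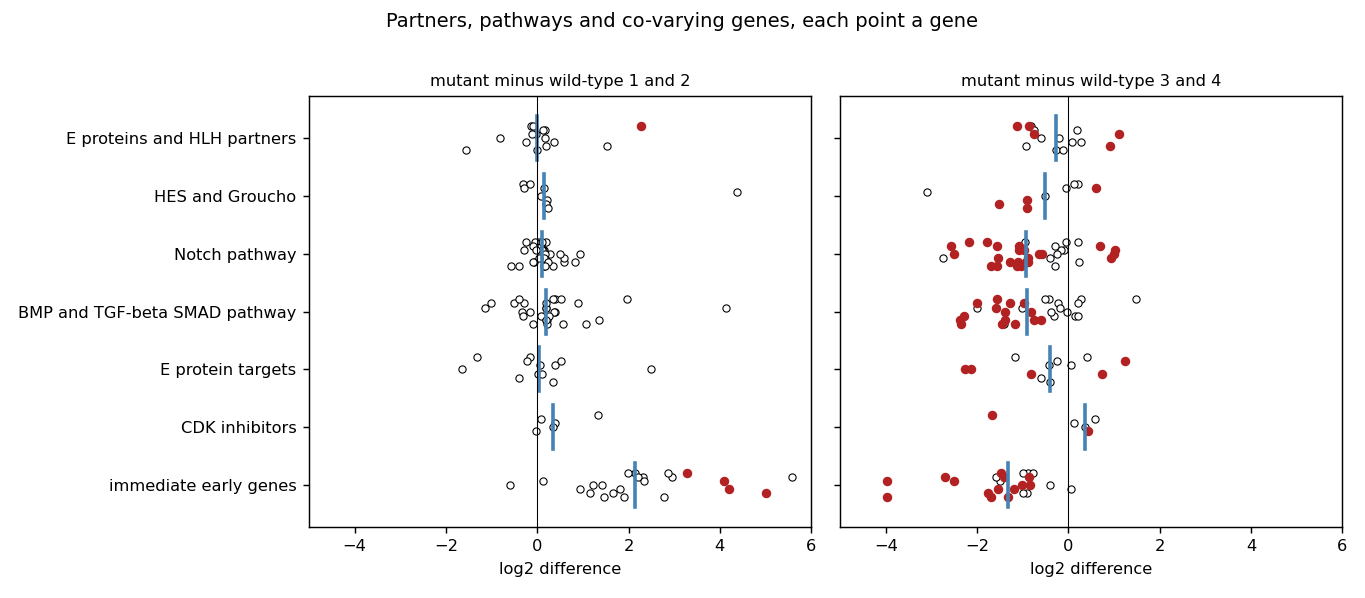
Log2 difference of each tested gene in 7 lists, against wild-type 1 and 2 (left) and against wild-type 3 and 4 (right). Filled points passed an adjusted p of 0.05, open points did not, and the vertical bars are list medians, which for the Notch list are 0.10 on the left and -0.92 on the right.

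Genes that E proteins switch on, 12 tested of 18 listed, gave no calls against all 4 libraries (median log2 -0.10; 0.0% of all genes) or against wild-type 1 and 2 (median 0.042; 0.318% of all genes). Vpreb1 and Cd79b rose and Cd79a, Socs3 and Ets2 fell against wild-type 3 and 4, where 19.7% of all genes rose and 22.8% fell. Cd79b, Socs3 and Ets2 were named after their values were seen. Vpreb1, a surrogate light chain gene of early B cells, had 87.5, 70.5 and 139 normalized counts in mutant 1, 2 and 3, against 65.6, 66.5, 43.4 and 36.6 in wild-type 1 to 4 (log2 0.88 against all 4, SE 0.35, adjusted p = 0.538). Cd79a, of the B cell receptor, was at 2.24 to 8.93 in the mutants, against 9.83 to 21.6 in the wild-type libraries, and Igll1 was at 2.68 to 13.5 in the mutants, against 11.7 to 17.5 in the wild-type libraries. Vpreb1, Cd79a and Igll1 are thus all low, and they do not lie on the same side. Socs3, a cytokine feedback inhibitor, had 1007, 3386 and 697 in mutant 1, 2 and 3, against 151, 371, 5349.5 and 7661 in wild-type 1 to 4, the same separation of wild-type pairs as Hes1.

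Cyclin-dependent kinase inhibitors, among them genes that ID proteins and HES1 are known to hold down, gave no calls among 5 tested against all 4 libraries (median log2 0.25; 0.0% of all genes) or against wild-type 1 and 2 (median 0.34; 0.318% of all genes). Cdkn2d rose and Cdkn1a fell against wild-type 3 and 4, where 19.7% of all genes rose and 22.8% fell, both named after their values were seen. Cdkn1b, encoding p27, was at 663 to 1033 normalized counts in the mutants, against 489.8 to 913 in the wild-type libraries. Cdkn1c, encoding p57, was at 999 to 1510.0 in the mutants, against 836 to 1185 in the wild-type libraries. Cdkn2c, encoding p18, was at 847 to 1174 in the mutants, against 650.0 to 1003 in the wild-type libraries. The genotypes overlapped for all 3 genes, with log2 differences of 0.33 (SE 0.26), 0.25 (SE 0.21) and 0.36 (SE 0.21).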

How the data were processed

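RNA from 7 samples of sorted stem cells was isolated with PicoPure, amplified with SMART-Seq v4 and sequenced without strand information, per the labels' protocols. Without strand, reads of overlapping antisense genes cannot be told apart. The submitters' processing notes name STAR 2.7.3a, DESeq2 1.12.4, HTSeq 0.6.1, FastQC 0.11.7, Cufflinks 2.2.1 and the build GRCm38, without options or roles. The gene signal the authors deposited was a normalized count. All values (100% within 0.01 reads) were whole multiples of a step per library, so whole reads were recovered, and the count test in edgeR 4.0.16 on those reads called 0, 21, 6755 and 8745 genes in the comparisons with all 4 wild-type libraries, wild-type 1 and 2, wild-type 3 and 4, and between wild-type pairs. FPKM per transcript was estimated and deposited by the authors, and was summed per gene.

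Genes with 10 or more normalized counts in at least 3 libraries (16047) were compared on log2(normalized count + 1) with limma 3.58.1 (R 4.3.3, variance trend, two-sided), fitted to the libraries compared, with Benjamini-Hochberg adjustment over all genes and a threshold of 0.05. Transcripts were tested in the same way on log2(FPKM + 1). Fold changes on these scales understate the change of low genes. Exact permutation tests over libraries, edgeR, DESeq2 1.42.0, other pseudocounts (0.5 and 10), no filter, TMM and quantile scaling, FPKM, library weights, the length slope or title series as a term, and leaving out each library were alternatives. The fitting code was tested on simulated data. Positions come from GENCODE vM21. The 4 genes and the lists were chosen with earlier results of these data known. Genes named were the 4 members, the 3 of smallest p against all 4 wild-type libraries in each list, 14 partner or pathway genes and the 3 nearest in pattern to each member, with markers where a result turned on them. Other genes are said to be named after their values were seen.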

Additional observations from a re-analysis of the deposited data

How the results depend on the processing

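Of 329 alternative values for the 4 genes and the counts of calls, 277 were classed as the same. For a gene this meant the same direction and side of the threshold. For a count of calls it meant staying within a set fold of the main count. The exact tests against a wild-type pair and between the pairs cannot go below 0.1 and 0.333, so their class was fixed in advance. The fit within the title series repeats that against wild-type 3 and 4 without mutant 3, so the values are not all independent. No paired analysis was possible because the genotypes share no replicate numbers in the labels. Against all 4 wild-type libraries, the number of genes called was 0 in limma and edgeR, 107 in DESeq2, 127 with the length slope as a term, 3597 with the title series as a term, 6010 within the series and 1022 outside it. There, the length slope brought Id1 (2.84), Id3 (2.97) and Hes1 (3.55) past the threshold. Within the title series Id1 (-0.16), Id3 (-0.62) and Hes1 (-0.74) reversed, and outside it Id1 (2.49) and Hes1 (3.03) passed. Leaving out 1 library moved Id3 between -0.14 (without wild-type 1) and 1.64. Against wild-type 1 and 2, calls numbered 51, against 22 with quantile scaling, 21 in edgeR, 281 in DESeq2, 1 with FPKM and 0 (without wild-type 1) to 769 (without mutant 2) leaving out a library. Id1 lost its call with FPKM (2.91), the exact test (3.01), Id1-201 alone (2.89) and Id1-202 alone (3.19), the last 2 chosen after seeing the data, and ranged from 2.47 to 3.54 leaving out a library. Hes1 lost its call with quantile scaling (3.68), edgeR (3.73), FPKM (3.48) and the exact test (3.76), and ranged from 2.82 to 4.70. Id2 passed in DESeq2 (0.70) and without mutant 2 (0.63), and ranged from 0.63 to 0.77, and Id3 ranged from 2.08 to 4.06. Against wild-type 3 and 4, calls ranged from 1483 (without wild-type 3) to 8760, with 6828 in all. Id1 ranged from -0.75 to -0.16, Id3 from -1.91 to -0.62 and Hes1 from -1.70 to -0.74, and Id1-202 alone reversed Id1 (0.74). Id2 passed with quantile scaling (0.66). Between wild-type pairs, the exact test, whose smallest p is 0.333, could not pass for Id1 (3.43), Id3 (4.31) or Hes1 (4.87), Id1-202 alone did not (2.45), and Id2 reversed with quantile scaling (-0.033). The cause of these changes was not tested, except that the exact tests were too small to pass.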
